A study of Rattus norvegicus with 18 samples.

Results

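Apelin, a secreted peptide hormone encoded by Apln, and its receptor, a G protein-coupled receptor encoded by Aplnr (older symbol Agtrl1), were followed through cultured rings of rat aorta exposed to angiogenic factors. The members were all probe sets annotated to Apln or Aplnr alone, which gave 4 of 31142 probe sets, or 2 of 13810 named genes, on 2 array types. Apln had 2 probe sets, 1368258_at and 1389651_at, both on the Affymetrix RAE230A (array A, 15866 probe sets). Aplnr had 1369301_at on array A and 1379772_at on the RAE230B (array B, 15276 probe sets). In the GRCr8 assembly of the rat genome Apln lies at chrX:132058739-132091518 and Aplnr at chr3:90624055-90627700. The pair was proposed with earlier results of these RNAs known, among them a higher reading of 1389651_at after VEGF, so differences of the members are given as a description, without a test.

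Apelin is made as a longer precursor that proteases trim to short active peptides. Its receptor resembles the angiotensin II receptor in sequence but does not bind angiotensin, and it signals through inhibitory G proteins and beta-arrestin. In mouse vessels apelin is a known product of tip cells, the leading cells of endothelial sprouts, and the receptor is known from venous and sprouting endothelium. Mouse work has also tied apelin to angiopoietin-1, which raises it in endothelial cells through the Tie2 receptor.

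Thoracic aortas of male Fisher 344 rats aged 5 weeks were sliced into 2 mm rings, which spent 14 days in suspension culture without serum. One group of 3 RNAs came from rings given recombinant human VEGF (vascular endothelial growth factor, 10 ng/ml) at day 13, and 3 RNAs came from rings given recombinant human Ang1 (angiopoietin-1, 100 ng/ml) together with a poly-His antibody (5 µg/ml). The reference RNAs, 3 as well, came from untreated rings in medium alone, which did not receive the antibody. The sample labels put the harvest at 20 h after treatment and the design text at 18 h, and 4 to 6 rings were pooled for each RNA. Per the design text 3 animals each gave rings to all 3 groups, but no label names the animal behind a replicate number, so the spread between RNAs may be partly technical. Untreated replicate 1 is labelled as a 2-cycle labelling and the others as the standard one. An explant holds many cell types, and in such bulk RNA fewer cells of a type and less RNA per cell cannot be told apart.

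Each of the 9 RNAs was read on both array types. Array B of Ang1 replicate 3 had been scaled lower than the others, with a trimmed mean signal of 94.8, where the other 8 arrays of its type stood at 250. Ang1 replicate 2 and untreated replicate 2 stood apart, the Ang1 RNA with a median correlation to the other arrays of 0.81 (array A) and 0.65 (array B), the untreated RNA with 0.90 and 0.85. Their 3' Gapdh control signals on array A were 446.9 and 64.4, and those of the other RNAs 2218 to 3247. Many group differences, list medians and correlations are also given without these RNAs. Differences of single list genes are mostly given over all 9 RNAs only, and some turned in sign without these RNAs. As a check of the tissue, 7 of 8 fibroblast, 5 of 11 smooth muscle and 5 of 12 endothelial markers on array A lay above its 75th percentile in untreated rings (median of the 3 RNAs), and 0, 3 and 3 lay below the median of the array.

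Across the 3 groups, only 1 of the 4 probe sets had a group that did not overlap either of the others. Apln probe set 1389651_at read higher in all 3 VEGF RNAs than in any Ang1 or untreated RNA. The other Apln probe set and both Aplnr probe sets overlapped in every pair of groups. Unless deposited signals are named, values are log2(signal + 16) after quantile normalisation within an array type, and the number of arrays limits their precision.

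**Figure D1:**
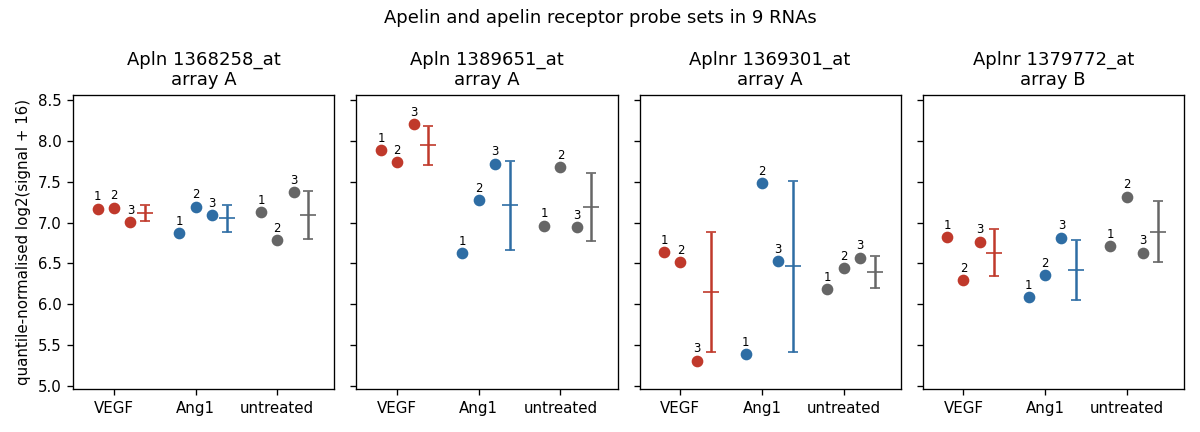
Quantile-normalised log2(signal + 16) of the 4 member probe sets in VEGF, Ang1 and untreated RNAs. Points are RNAs with their replicate numbers, and the bar beside each group is the mean ± SD (n = 3). The 3 VEGF points of Apln 1389651_at lie above the 6 other points of that panel, while groups overlap in the other panels. Levels of different probe sets are not comparable.

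The 2 probe sets of the ligand gene differed in their readings. The deposited signal of 1389651_at was 219.2, 198.9 and 290.9 in VEGF replicates 1 to 3, 85.8, 198.1 and 194.5 in Ang1 replicates 1 to 3, and 99.4, 157.5 and 95.9 in untreated replicates 1 to 3. The lowest VEGF signal, 198.9, lay barely above the highest Ang1 signal, 198.1, which came from Ang1 replicate 2. The highest untreated signal was 157.5. On the normalised scale the lowest VEGF value, 7.74, lay just above Ang1 replicate 3 (7.72) and untreated replicate 2 (7.68). After normalisation this probe set averaged 7.95 ± 0.24 after VEGF, 7.21 ± 0.55 after Ang1 and 7.19 ± 0.42 in untreated rings (log2, SD, n = 3 each). The order was VEGF, Ang1, untreated, and the last pair differed by less than their spread.

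The difference of 1389651_at between VEGF and untreated RNAs was 0.75 ± 0.35 log2 units (SE of the fit, n = 3 per group), which is 1.69-fold. All 3 VEGF values lay above all untreated ones, as did those of 3.63% of the 9520 probe sets kept on array A. Between VEGF and Ang1 the difference was 0.74 ± 0.35, or 1.67-fold, again without overlap, a direction shared by 3.77% of kept probe sets. The comparisons with VEGF share the VEGF RNAs and are not separate evidence. Ang1 and untreated RNAs differed by 0.02 ± 0.35 and overlapped, since Ang1 replicate 1 had the lowest value of the 9 (6.63) and Ang1 replicate 3 the highest outside the VEGF group (7.72). That difference ran from -0.24 to 0.31 when RNAs were left out in turn.

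Untreated replicate 2 was the exception among untreated RNAs. Its normalised 1389651_at value was 7.68, against 6.96 and 6.94 in untreated replicates 1 and 3. Without it the VEGF difference was 0.99 ± 0.36, and without it and Ang1 replicate 2 it was 1.04 ± 0.34. Leaving out each RNA in turn gave 0.62 to 0.99. With arrays scaled to a common median the VEGF values still lay above all untreated ones, but VEGF and Ang1 values overlapped, at a difference of 0.75. Without Ang1 replicate 1, the low one, the VEGF minus Ang1 difference was 0.45 ± 0.37.

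The other Apln probe set, 1368258_at, had overlapping groups and similar group means. Its deposited signal was 120.3, 129.5 and 121.3 in VEGF RNAs, 102.8, 188.9 and 113.3 in Ang1 RNAs, and 114, 79.8 and 140.6 in untreated RNAs. The highest signal, in Ang1 replicate 2, became 7.19 log2 units on normalisation, below the 7.37 of untreated replicate 3, and the groups overlapped. Group means were 7.12 ± 0.10 after VEGF, 7.05 ± 0.16 after Ang1 and 7.09 ± 0.30 in untreated rings (SD, n = 3 each). The VEGF minus untreated difference was 0.03 ± 0.27 and the Ang1 minus untreated difference -0.04 ± 0.27 (SE). Both are near the median of all kept probe sets, which was -0.01 for VEGF and -0.03 for Ang1. Without untreated replicate 2 and Ang1 replicate 2, Ang1 minus untreated was -0.28 and VEGF minus untreated was -0.14. Both Ang1 values left then lay below both untreated ones, which held in 1 of 18 settings. The share of all probe sets that separate among so few RNAs was not counted. No order of the 3 groups can be read from the means over all RNAs, since each neighbouring pair differed by less than the spread within a group.

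**Figure D2:**
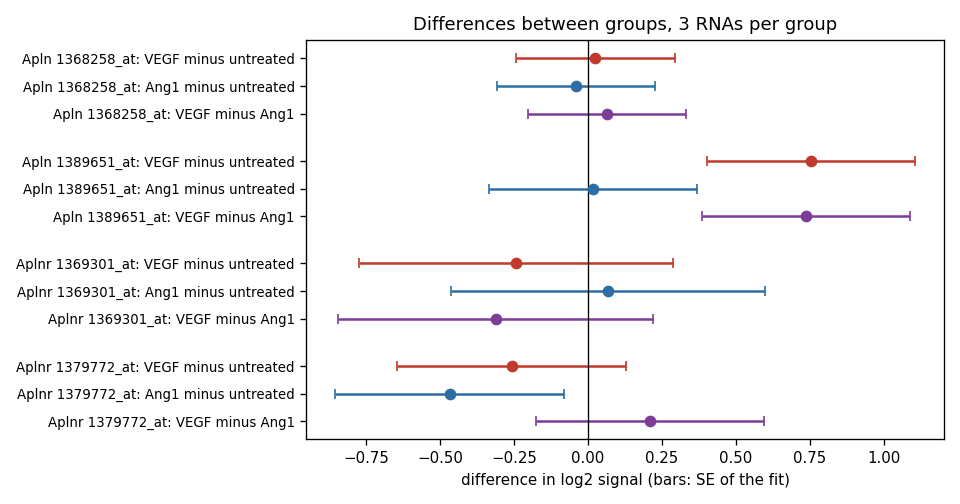
Differences between groups in log2 signal for the 4 member probe sets, with the SE of the fit as bars (n = 3 per group). Apln 1389651_at stands at 0.75 for VEGF minus untreated and 0.74 for VEGF minus Ang1, and the 2 probe sets of Aplnr lie at -0.24 and -0.26 for VEGF minus untreated.

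The difference between the 2 Apln probe sets, 1389651_at minus 1368258_at, was then taken within each RNA, as a measure of how unequally they moved. Its mean was 0.83 ± 0.34 log2 units in VEGF RNAs, 0.16 ± 0.44 in Ang1 RNAs and 0.10 ± 0.70 in untreated RNAs (SD, n = 3 each). It ran from 0.56 to 1.20 after VEGF, from -0.24 to 0.63 after Ang1 and from -0.43 to 0.90 in untreated rings, the last maximum again in untreated replicate 2. Over the 9 RNAs the 2 probe sets correlated at r = -0.10 (Spearman rho = -0.08), and over the 7 without untreated replicate 2 and Ang1 replicate 2 at r = 0.03, given as a description.

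Low agreement between partner probe sets was frequent on array A. It held 668 genes with exactly 2 kept probe sets, and the median correlation between partners was 0.14 over the same 9 RNAs. The value was below that of Apln for 232 of them, or 34.7%. Partner probe sets differed in their VEGF minus untreated difference by a median of 0.32 log2 units, and by more than the 0.73 of Apln in 89 genes, or 13.3%. The gap of Apln was wider than that of most such genes. A higher reading of an Apln probe set after VEGF was already known when Apln was chosen. A wide gap was therefore partly fixed in advance, and its rank is given as a description. The 668 genes share the same 9 RNAs and are no independent replicates.

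**Figure D3:**
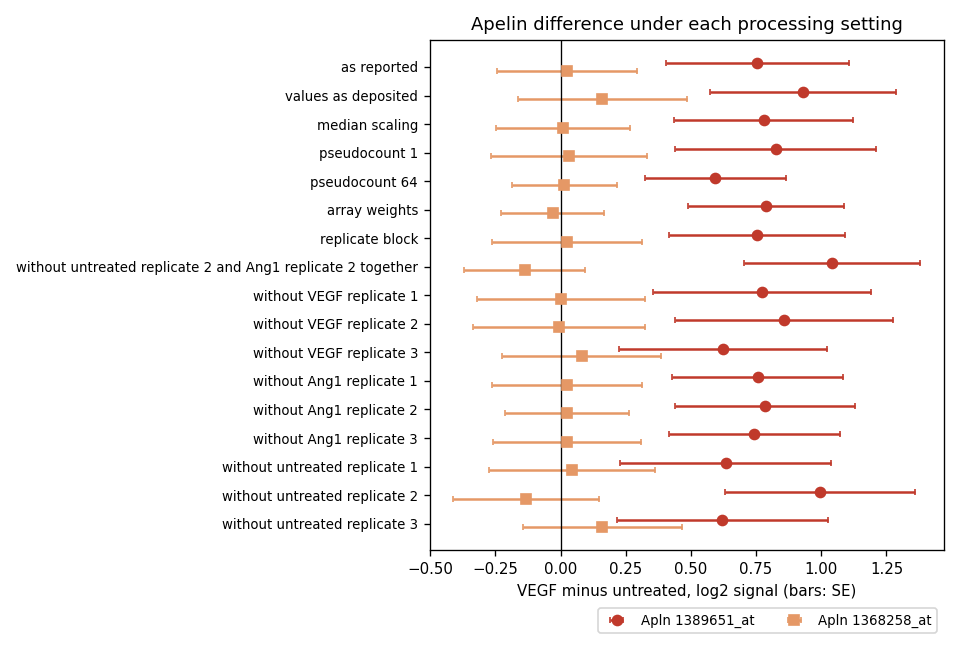
VEGF minus untreated difference in log2 signal of the 2 Apln probe sets as reported and under 16 alternative settings, with the SE of each fit as bars. Circles, 1389651_at, run from 0.59 to 1.04 and squares, 1368258_at, from -0.14 to 0.16.

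The receptor gene was read dimly. Both Aplnr probe sets fell below the low-signal limit, the 40th percentile of mean signal: 1369301_at lay at percentile 36.2 of array A and 1379772_at at percentile 38.6 of array B, whereas the Apln probe sets lay at 51.7 and 58.9. Only the 2 Apln probe sets therefore entered the filtered fit, and the receptor's differences come from the fit without a filter. Detection calls were not used here, so whether a single reading exceeds background is not known.

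On array A the receptor's deposited signal was 76.6, 74.6 and 24.6 in VEGF RNAs, 26.9, 219.1 and 67.9 in Ang1 RNAs, and 49.8, 61.5 and 68.3 in untreated RNAs. Ang1 replicate 2 carried the highest value and VEGF replicate 3 and Ang1 replicate 1 the lowest. Untreated RNAs were the most alike, at 6.40 ± 0.20 log2 units, against 6.15 ± 0.74 after VEGF and 6.47 ± 1.05 after Ang1 (SD, n = 3 each). VEGF minus untreated was -0.24 ± 0.53, Ang1 minus untreated 0.07 ± 0.53 and VEGF minus Ang1 -0.31 ± 0.53 (SE). Single RNAs set these signs: VEGF minus untreated turned to 0.18 without VEGF replicate 3, and Ang1 minus untreated to -0.43 without Ang1 replicate 2. VEGF minus Ang1 turned to 0.19 without Ang1 replicate 2.

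On array B the receptor's deposited signal was 89.9, 65.9 and 112.5 in VEGF RNAs, 63.1, 94.8 and 41.1 in Ang1 RNAs, and 95.1, 141.6 and 84.9 in untreated RNAs. The 41.1 of Ang1 replicate 3 belongs to the array that had been scaled lower, and after normalisation it was the highest Ang1 value, 6.81. Normalised means were 6.63 ± 0.29 after VEGF, 6.42 ± 0.37 after Ang1 and 6.89 ± 0.37 in untreated rings (SD, n = 3 each). The differences were -0.26 ± 0.39 for VEGF minus untreated, -0.47 ± 0.39 for Ang1 minus untreated and 0.21 ± 0.39 for VEGF minus Ang1 (SE). The highest of the 9 values, 7.32, was that of untreated replicate 2. Without that RNA VEGF minus untreated was -0.04 and Ang1 minus untreated -0.25. Without Ang1 replicate 3, the RNA whose array had been scaled lower, Ang1 minus untreated was -0.68, and both Ang1 values left lay below all untreated ones. That separation held in 1 of 18 settings, and the share of all probe sets that separate in that setting was not counted.

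Groups of the receptor overlapped in each of the 6 comparisons over all RNAs, 3 on each array type. Among the kept probe sets, which hold neither receptor probe set, groups did not overlap on array A in 8.45% for VEGF minus untreated, 9.11% for Ang1 minus untreated and 8.07% for VEGF minus Ang1. On array B they did not overlap in 6.44% for VEGF minus untreated, 17.5% for Ang1 minus untreated and 15.5% for VEGF minus Ang1. The 2 receptor probe sets correlated at r = 0.08 over the 9 RNAs (rho = 0.08) and at r = 0.35 over the 7 without the RNAs that stood apart. Between ligand and receptor on array A, 1368258_at and 1369301_at correlated at r = 0.51 (rho = 0.72) over 9 RNAs and at r = 0.80 over those 7. For 1389651_at and 1369301_at r was 0.01 over 9 RNAs and 0.09 over 7. With the receptor probe set of array B, 1379772_at, the order was the other way round. There 1389651_at gave r = 0.50 over 9 RNAs and 0.54 over 7, and 1368258_at -0.28 and 0.39. These are descriptions over RNAs of 3 groups, and readings this near the low-signal limit carry large errors.

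In the model over all probe sets nothing passed in any comparison. Array A had 0 of 9520 kept probe sets called (0%) and array B had 0 of 9166 (0%) in limma at an adjusted p under 0.05, for VEGF minus untreated, Ang1 minus untreated and VEGF minus Ang1 alike. At an unadjusted p under 0.05 array A had 157 probe sets for VEGF minus untreated (1.65%), 302 for Ang1 minus untreated (3.17%) and 189 for VEGF minus Ang1 (1.99%). With the replicate number as a block, the 157 became 294. Array B had 66 (0.72%), 960 (10.5%) and 777 (8.48%) for these comparisons. With array weights the adjusted counts were 6 for Ang1 minus untreated and 24 for VEGF minus Ang1 on array A.

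Measures of RNA quality and cell makeup were set beside the Apln reading. The 3' to 5' signal ratio of the actin control on array A was 8.79, 9.12 and 12.4 in VEGF RNAs, 8.29, 6.18 and 8.29 in Ang1 RNAs, and 4.34, 1.86 and 7.70 in untreated RNAs. The 3 VEGF ratios of array A all lay above those of the other groups, as did the 1389651_at values. On array B the ratios were 5.24, 5.48 and 11.9 in VEGF RNAs, 7.38, 1.25 and 6.75 in Ang1 RNAs, and 3.02, 3.04 and 5.08 in untreated RNAs. There VEGF lay above untreated but overlapped with Ang1. On array A VEGF replicate 3 had the highest ratio and the highest 1389651_at value of its group. Untreated replicate 2 had the lowest ratio of its group on array A and its highest 1389651_at value. The summed normalised signal of 12 endothelial markers (of 15 listed, 11 above the low-signal limit) ran from 3291 to 4584 after VEGF, from 2151 to 4952 after Ang1 and from 2131 to 4409 in untreated rings, so the groups overlapped. On array B the sum of 3 endothelial markers ran from 1964 to 2931 after VEGF, from 1108 to 2539 after Ang1 and from 2698 to 3597 in untreated rings. On array A untreated replicate 2 had the lowest endothelial mean, 7.11 log2 units, with the highest untreated 1389651_at value. Fat cells also make apelin. The summed signal of 4 adipocyte markers on array A (of 6 listed) was 407.4 to 514.0 after VEGF, 286.5 to 482.7 after Ang1 and 316.3 to 609.4 in untreated rings, so these overlapped. The other 2 markers, on array B, summed to 249.3 to 636.0 after VEGF, 88.7 to 496.9 after Ang1 and 141.0 to 440.6 in untreated rings. Without the RNAs that stood apart, the 2 kept adipocyte markers of array A had median differences from untreated of 0.29 (VEGF) and 0.02 (Ang1). The 1 kept on array B stood at 0.80 and 0.001. The 11 kept endothelial markers of array A then had medians of -0.05 and 0.05, and the 2 of array B -0.49 and -0.54. Of these markers 0 were called. In untreated rings the adiponectin gene Adipoq and the lipase gene Lpl stood at median percentiles 75.6 and 76.0 of their arrays, and Fabp4, Plin1, Cidec and the leptin gene Lep at 46.6, 31.9, 8.2 and 5.2.

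Smooth muscle and macrophage markers were summed in the same way. Summed smooth muscle markers on array A (11 of 12) were 5792 to 7243 after VEGF, 6335 to 7883 after Ang1 and 5918 to 13683 in untreated rings. The overlap rests on untreated replicate 2, since the other untreated sums were 11295 and 13683. Summed macrophage markers on array A (10 of 12) overlapped, at 4766 to 6609 after VEGF, 4350 to 5953 after Ang1 and 2751 to 6731 in untreated rings. On array B the sum of 3 macrophage markers was 8305 to 9756 after VEGF, 4399 to 7381 after Ang1 and 4344 to 6566 in untreated rings, so VEGF lay above both other groups, as for 1389651_at. Their mean log2 signal after VEGF lay above the untreated RNAs, at 10.19 to 10.39 against 9.54 to 10.16, but overlapped with Ang1, at 10.23 to 10.54. Without the RNAs that stood apart, VEGF minus untreated was 1.04 for 1389651_at. There 9 of 10 kept smooth muscle markers on array A were lower after VEGF (median -0.88) and 9 of 9 kept macrophage markers higher (median 0.50). After Ang1 9 of 10 smooth muscle markers were lower as well (median -0.58) and 8 of 9 macrophage markers higher (median 0.34). In both comparisons 0 were called. The part of RNA quality and of cell makeup in the Apln difference was not tested.

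The genes whose pattern was most like Apln 1389651_at were sought among 8002 kept probe sets of array A with 1 other gene symbol, by Pearson correlation over the 9 RNAs. They were Fam43a (r = 0.91, Spearman rho = 0.97), the microtubule polymerase gene Ckap5 (r = 0.88, rho = 0.90), the fatty acid binding protein gene Fabp4 (r = 0.85, rho = 0.80), the endomucin gene Emcn of the endothelial surface (r = 0.82, rho = 0.83) and the basement membrane gene Nid2 (r = 0.82, rho = 0.68). Emcn had deposited signals of 168.2, 161.1 and 182.6 in VEGF RNAs, 65.9, 139 and 83.2 in Ang1 RNAs, and 62.5, 72.7 and 82.1 in untreated RNAs. Its VEGF values lay above all others, as for Apln, and its VEGF minus Ang1 difference was 0.96 ± 0.26. All of these genes were picked for their correlation with 1389651_at over the same RNAs, those given VEGF included. A separation shared with Apln was therefore partly fixed by the choice and is no separate evidence.

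Fam43a shared the separation from untreated RNAs, with 180.8, 117.7 and 210.6 in VEGF RNAs, 80.8, 174.2 and 119 in Ang1 RNAs, and 84.2, 92.9 and 70.7 in untreated RNAs. Nid2, Fabp4 and Ckap5 did not, since untreated replicate 2 lay within or above their VEGF values. Nid2 had 855.7, 785.8 and 1367 in VEGF RNAs, 492.2, 678.9 and 832.7 in Ang1 RNAs, and 318, 1322 and 631.1 in untreated RNAs. Over the 7 RNAs without untreated replicate 2 and Ang1 replicate 2, the correlations of the 5 genes with 1389651_at were 0.86 to 0.94, and all 5 were still among the 50 highest. All 5 were also among the 50 highest with values as deposited, where Fam43a ranked highest.

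**Figure D4:**
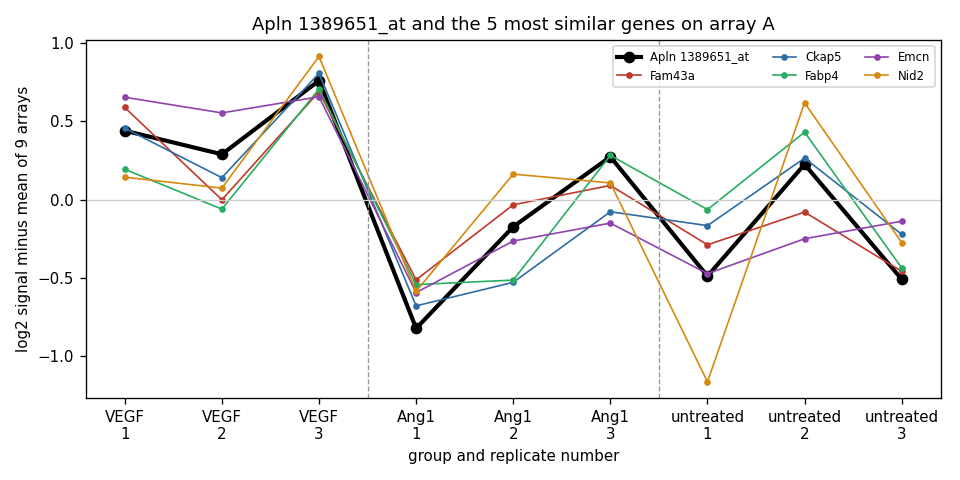
Log2 signal minus its mean over the 9 arrays of type A for Apln 1389651_at (black) and the 5 genes with the highest correlation to it, by group and replicate. All 6 curves are highest at VEGF replicate 3, and within the untreated group all but that of Emcn are highest at replicate 2.

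A different set accompanied 1368258_at: Il17b (r = 0.93, rho = 0.87), the RNA-binding protein gene Khsrp (r = 0.89, rho = 0.88), Ramp1, a co-receptor of the calcitonin receptor family (r = 0.88, rho = 0.80), Necap1 (r = 0.84, rho = 0.85) and the fatty acid elongase gene Elovl6 (r = 0.82, rho = 0.90). None of these was among the 5 of 1389651_at. For the receptor on array A the most alike were Paox, Usp34, the neuropeptide receptor gene Npffr1, Khdrbs3 and Kif13a, with r from 0.88 to 0.94, and on array B Borcs7, Cdyl2, Ube2q2, Gemin6 and Tlnrd1, with r from 0.87 to 0.93. For 1368258_at and for each receptor probe set, 3 of the 5 were among the 50 highest once the RNAs that stood apart were left out.

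Genes around apelin signalling were grouped by role in 7 lists of 93 genes in all, of which 52 had a kept probe set on array A and 8 on array B. None was called in any comparison over all probe sets. On array A the lowest adjusted p among them was 1.00 for VEGF minus untreated, 0.95 for Ang1 minus untreated and 0.97 for VEGF minus Ang1 (limma). At an unadjusted p under 0.05 (limma) there were 2 of 52, both for Ang1 minus untreated. Of all kept array A probe sets 3.17% reached it in that comparison, a share near that of the list genes.

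Of the peptide's processing and breakdown, 2 of 5 genes were measured. Furin, the convertase that cuts the precursor, differed by -0.10 ± 0.42 after VEGF and -0.13 ± 0.42 after Ang1 (SE, n = 3 per group). Mme, the gene of neprilysin, which degrades apelin peptides, differed by -0.32 ± 0.39 after VEGF and 0.31 ± 0.39 after Ang1. The list median was -0.21 after VEGF and 0.09 after Ang1, and without the RNAs that stood apart it was 0.06 and -0.05. Apela, which encodes another ligand of the receptor, had no kept probe set.

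Of 15 genes of receptor coupling and desensitisation 6 were measured on array A. After VEGF 5 lay higher and 1 lower (median 0.42, against -0.01 over all kept probe sets), and after Ang1 2 higher and 4 lower (median -0.18, against -0.03). Gnai2, an inhibitory G protein subunit through which the receptor signals, stood at 1.13 ± 0.86 after VEGF and 0.72 ± 0.86 after Ang1. The S6 kinase gene Rps6kb1 stood at -1.07 ± 0.59 after VEGF and -1.68 ± 0.59 after Ang1 (limma, unadjusted p = 0.017 and adjusted p = 0.95 for Ang1). Without untreated replicate 2 and Ang1 replicate 2 the list median was 0.11 after VEGF and 0.07 after Ang1, and 0 of 6 genes were called.

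Of 13 ligands and receptors of the Tie and VEGF families 8 were measured on array A, 4 higher and 4 lower after VEGF (median 0.05) and 3 higher and 5 lower after Ang1 (median -0.29). Without the RNAs that stood apart the medians were 0.18 and -0.01. Pgf, which encodes a placental ligand of VEGF receptor Flt1, stood at 0.52 ± 0.76 after VEGF and -0.93 ± 0.76 after Ang1. Ang1 minus untreated was -0.22 ± 0.27 for Angpt2, -0.46 ± 0.41 for Kdr and 0.30 ± 0.29 for Tie1. On array B Tek, the gene of the Ang1 receptor Tie2, stood at -0.41 after VEGF and -0.74 ± 0.35 after Ang1 (limma, adjusted p = 0.47 for Ang1). All 3 Ang1 values of Tek lay below all untreated ones. For Ang1 minus untreated 17.5% of kept array B probe sets did not overlap, in either direction. Without the RNAs that stood apart Tek stood at -0.50 after VEGF and -0.48 after Ang1, so it was similarly low after both factors.

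Of 14 hypoxia, FOXO and Notch regulators 10 were measured on array A, 6 higher and 4 lower after VEGF (median 0.02) and 6 higher and 4 lower after Ang1 (median 0.09). Without the RNAs that stood apart the medians were 0.15 and 0.22. Hif1a, the hypoxia factor that drives Apln transcription in low oxygen, differed by 0.01 ± 0.54 after VEGF and 0.05 ± 0.54 after Ang1. The Notch ligand gene Dll4, on array B, stood at 0.44 ± 0.54 after VEGF and -0.10 ± 0.54 after Ang1, and the Notch effector gene Rbpj gave 0.56 ± 0.41 on array A and -0.27 ± 0.37 on array B after VEGF.

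Tip cell genes, the class to which Apln is assigned in mouse, were 9 higher and 4 lower of 13 measured on array A after VEGF (median 0.19) and 6 higher and 7 lower after Ang1 (median -0.22). Without the RNAs that stood apart the medians were 0.21 and 0.04, so the shift after Ang1 turned in sign. Nid2 stood at 0.65 ± 0.45 after VEGF and 0.17 ± 0.45 after Ang1, and the chemokine receptor gene Cxcr4 at 0.19 ± 0.53 and -0.49 ± 0.53. The potassium channel subunit gene Kcne3 stood at -0.15 ± 0.31 after VEGF and -0.73 ± 0.31 after Ang1 (limma, unadjusted p = 0.040, adjusted p = 0.95 for Ang1). All 3 Ang1 values of Kcne3 lay below all untreated ones. For Ang1 minus untreated 9.11% of kept array A probe sets did not overlap, in either direction. Col4a2, a basement membrane collagen gene, stood at 0.23 ± 0.38 after VEGF and 0.81 ± 0.38 after Ang1.

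Of 10 endothelial genes reported downstream of the apelin receptor 8 were measured, 4 higher and 4 lower in each comparison with untreated rings (medians -0.02 after VEGF and -0.05 after Ang1). Without the RNAs that stood apart both medians turned in sign, to 0.11 and 0.04. The flow-responsive transcription factor gene Klf2 stood at -0.65 ± 0.47 after VEGF and -0.24 ± 0.47 after Ang1, and the tight junction gene Cldn5 at -0.51 ± 0.57 in each. Fabp4 stood at 0.30 ± 0.36 after VEGF and -0.23 ± 0.36 after Ang1. Of 21 other vasoactive peptide and receptor genes 6 were measured, 3 higher and 3 lower in each comparison with untreated rings (medians 0.03 after VEGF and 0.08 after Ang1). These medians turned to -0.08 and -0.10 without the RNAs that stood apart. Edn1, which encodes the vasoconstrictor endothelin-1, stood at 0.43 ± 0.34 after VEGF and 0.45 ± 0.34 after Ang1, and Agtr1a, which encodes the related angiotensin receptor, at -0.34 ± 0.39 and -0.07 ± 0.39.

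**Figure D5:**
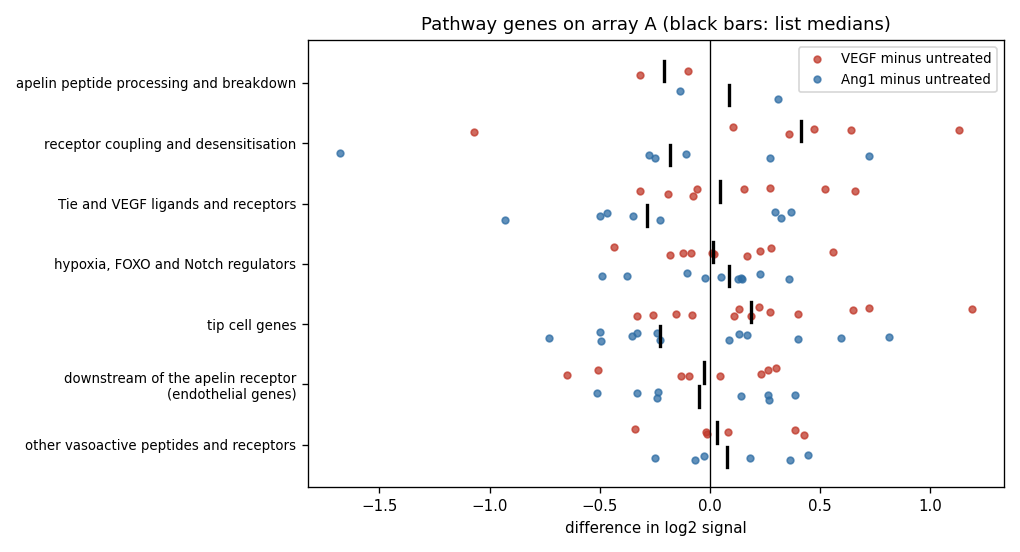
Differences from untreated rings in log2 signal of the kept genes of 7 lists around apelin signalling on array A, VEGF in red and Ang1 in blue. Each point is a gene and each black bar a list median, which lies between -0.21 and 0.42 after VEGF and between -0.29 and 0.09 after Ang1.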

How the data were processed

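RNA from cultured rat aortic rings was read on 2 Affymetrix array types, 9 arrays each. The deposited values are linear intensities, 1 per probe set. The submitters' processing notes name MAS5, with no version. Probe sets were named through the platform annotation, updated by gene ID. Control probe sets (57 per type) were removed. Signals were taken as log2(signal + 16) and quantile normalised within an array type, and probe sets at or above the 40th percentile of mean signal were kept. Groups were compared with limma 3.58.1 in R 4.3.3 (lmFit, eBayes with an intensity trend) in 1 model per array type over 9 arrays, with Benjamini-Hochberg adjustment over the kept probe sets. The script was tested on simulated data. A list gene was read by its brightest kept probe set.

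Named genes were the members, the 5 most alike per member probe set, a preset selection of list genes and up to 3 with the smallest p per list. The members and lists were chosen with earlier results of these data known. Alternatives were values as deposited, median scaling, pseudocounts 1 and 64, no filter, no trend, array weights, a replicate block and leaving out RNAs. Per the design text each animal gave rings to all groups. Deviations of same-numbered RNAs from their group means correlated at over 0.1 in all 3 pairs of VEGF with untreated (0.14 to 0.41 on array A, 0.16 to 0.29 on array B) and of Ang1 with untreated (0.34 to 0.49 and 0.14 to 0.25). They did not in all pairs of VEGF with Ang1 (-0.15 to 0.23 and -0.21 to 0.23). Differently numbered RNAs of Ang1 and untreated correlated at -0.45 to 0.33 on array A. Whether RNAs of the same number share an animal is thus not known.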

Additional observations from a re-analysis of the deposited data

How the results depend on the processing

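For Apln 1389651_at the VEGF minus untreated and VEGF minus Ang1 differences kept their direction in all 16 settings tried, from 0.59 to 1.04 and from 0.45 to 0.98, and the 3 comparisons of Aplnr on array B also kept theirs. Other member differences changed sign in 2 to 5 of 16 settings. With values as deposited Apln 1368258_at gave 0.23 for Ang1 minus untreated and -0.070 for VEGF minus Ang1. Without untreated replicate 2 and Ang1 replicate 2 its Ang1 minus untreated difference was -0.28. With array weights VEGF minus Ang1 was 0.24 for Apln 1368258_at and 0.72 for Aplnr 1369301_at. Counts of called probe sets, 0 in each comparison as reported, became 6 (Ang1 minus untreated, array A), 24 (VEGF minus Ang1, array A), 2 (Ang1 minus untreated, array B) and 8 (VEGF minus Ang1, array B) with array weights, and 117 and 25 for these comparisons on array B with values as deposited. The cause of these changes was not tested. Called list genes stayed at 0. Of the 5 most alike genes, 3 stayed among the 50 highest for Apln 1368258_at and Aplnr 1369301_at with values as deposited, and 3 for these and Aplnr 1379772_at without both RNAs. With the replicate block Apln 1389651_at gave 0.75 ± 0.34 for VEGF minus untreated and 0 probe sets were called in each comparison, so the block changed no call. The count at an unadjusted p under 0.05 moved by over 1.5 times for VEGF minus untreated on array A, to 294 against 157 without the block.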
